A study of Mus musculus with 4 samples.

Results

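Endocardial nuclei come from the cells that line the cardiac chambers and face the blood. They were picked out of single-nucleus RNA sequencing of mouse ventricles by a rule on transcript counts. A nucleus was a member when it held at least 4 molecules (unique molecular identifiers, UMIs) of Npr3, Smoc1, Tmem108, Nrg1 and Plagl1, spread over 2 or more of these genes. Limits on genes of other cells applied at the same time. Ttn plus Ryr2 of cardiomyocytes stayed under 1% of UMIs, the lymphatic genes Reln, Mmrn1 and Flt4 and the mesothelial genes Msln, Upk3b and Wt1 at 1 UMI or less each set, and the fibroblast genes Pdgfra, Dcn and Col1a2 and the macrophage genes Mrc1, F13a1 and Adgre1 at 2 UMIs or less each set. The rule found 720 endocardial nuclei among 19584 nuclei that held at least 300 genes and at most 20% mitochondrially encoded UMIs, which is 3.676%.

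The study asked how voluntary exercise alters the cells of the heart before and after infarction. All mice were C57BL/6J wild type, male and female, and 8 weeks old at the start. The running infarct group had 16 weeks of voluntary wheel running and then myocardial infarction surgery, and its 4 hearts were taken 2 weeks after the surgery. The sedentary infarct group had the same surgery and interval without a wheel, with 4 hearts. The running group gave 2 hearts after 16 weeks of running with no surgery, and the sedentary group 2 hearts with neither. The labels name no sham surgery, and the infarct hearts were taken at a later age than the others. The ventricles of a group were pooled, frozen, minced and lysed, and nuclei sorted on a DNA dye went into 1 well per group. Each group is therefore 1 library, hearts within a pool cannot be told apart, and no comparison between groups has a replicate check or a test. Intervals in brackets are exact 95% intervals that cover counting error only, and a difference between libraries cannot be told apart from a difference between pools.

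The endocardium is an endothelium that arises early in heart development and keeps a transcription programme apart from that of the coronary vessels. It signals to the muscle beneath it. Its best known paracrine factor is neuregulin-1, the Nrg1 product, which activates ErbB receptors on cardiomyocytes and drives trabeculation in the embryo. Some endocardial cells also form the cushions of the valves by turning mesenchymal, under BMP, TGF-beta and Notch signals, and blood flow acts on the layer through Klf2 and Klf4.

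There were 203 members in the running infarct library, 102 in the sedentary infarct library, 233 in the running library and 182 in the sedentary library. They made up 4.14% (3.6 to 4.736), 3.182% (2.601 to 3.849), 3.799% (3.335 to 4.308) and 3.407% (2.937 to 3.929) of the nuclei of those libraries in the same order. The intervals of these shares overlapped between neighbours in rank. A rule that needs 4 UMIs depends on depth. Each nucleus was therefore also thinned to 2000 UMIs before the rule was applied. The shares then came to 10.21% in running infarct, 6.963% in sedentary infarct, 7.002% in running and 5.549% in sedentary hearts. The running infarct library stood highest both times, but with Nrg1 in the rule each time. These thinned shares are over the 3114, 2614, 4713 and 4217 nuclei that held 2000 UMIs or more. Thinning also brings UMIs of the excluded genes under their limits. Chosen without thinning by the other 4 markers, 173 of 4903, 97 of 3206, 216 of 6133 and 172 of 5342 nuclei were members in the same order. That is 3.528% in running infarct hearts, against 4.14% with Nrg1 in the rule. Among vascular endothelial nuclei, endocardial nuclei made up between 22.25% and 25.63% in the 4 libraries.

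Library depth ran from 26170995 to 37533722 UMIs, and the median endocardial nucleus held between 3106 and 3659 UMIs. Mitochondrially encoded genes took 4.831% of endocardial UMIs in running infarct, 6.22% in sedentary infarct, 8.886% in running and 6.222% in sedentary nuclei, and were left out of all totals. Endocardial UMIs then summed to 721352, 390093, 816647 and 587638 in that order, and levels are given as UMIs per 1000000 of these sums (CPM). Nuclei holding 2 or more Y-linked UMIs made up 19.21%, 15.69%, 36.91% and 26.92% of members in the same order, so the mix of male and female nuclei differed between libraries. Of all members, 4 had a barcode that also occurs in another library. Just inside the marker limit, with exactly 4 marker UMIs, lay 8, 4, 10 and 6 nuclei, and just outside it, with 3, lay 32, 10, 14 and 12. Most nuclei that met the marker limit were turned away by another limit. In running infarct hearts 799 nuclei met it and 537 of them held too many fibroblast UMIs, and in sedentary hearts 635 met it and 413 held too many.

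Some members carried transcripts of a further cell type that the rule does not screen. Nuclei with no UMI of 6 endothelial genes, or with at least 3 UMIs of adipocyte, lymphocyte or additional macrophage genes or at least 5 of mural or additional fibroblast genes, numbered 23 of 203 (11.33%) in running infarct, 9 of 102 (8.824%) in sedentary infarct, 6 of 233 (2.575%) in running and 4 of 182 (2.198%) in sedentary hearts. They were thus more frequent after infarction. In running infarct hearts 10 of them held macrophage genes, and 2 nuclei of the sedentary infarct hearts held adipocyte genes. These 2 adipocyte-bearing nuclei gave 6.486% of the sedentary infarct endocardial UMIs. The 10 cardiomyocyte marker genes summed to 2861, 3020, 3195 and 3848 CPM in endocardial nuclei of running infarct, sedentary infarct, running and sedentary hearts, although Ttn and Ryr2 are limited by the rule. The 9 macrophage marker genes summed to 376, 228, 244 and 257 CPM. The part of such RNA in the results below was not tested. Results that move without the nuclei of mixed content are given both ways below, a check chosen after seeing the data.

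Several endocardial genes that the rule did not use were higher in these nuclei than in other endothelium. Of 25 other genes known from endocardium, 21 could be compared with the 2348 other vascular endothelial nuclei, and 11 were at least 1.5-fold higher in endocardial nuclei in all 4 libraries, against 2 at least 1.5-fold lower. Over all 8002 genes compared, 298 were at least 1.5-fold higher (3.72%) and 491 at least 1.5-fold lower (6.14%) in every library. This is a description of the nuclei that the rule chose. At a stricter limit, 82 of the 8002 genes were at least 3-fold higher and 107 at least 3-fold lower in every library. Cdh11, a cadherin of mesenchymal cells and of endocardium, had 1490, 1433, 1179 and 1261 CPM in endocardial nuclei of running infarct, sedentary infarct, running and sedentary hearts, against 101.3, 52.9, 119 and 118 CPM in other endothelial nuclei. The lowest endocardial library thus lay far above the highest library of other endothelial nuclei.

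Among the 11 genes higher throughout were the transcription factor genes Gata4, Gata6, Hand2 and Foxc1. Gata4 was 4.42- to 8.02-fold, Gata6 2.33- to 8.05-fold, Hand2 5.89- to 10.2-fold and Foxc1 3.22- to 5.86-fold above other endothelial nuclei over the 4 libraries. Vwf, the von Willebrand factor of venous and endocardial endothelium, was 2.57- to 6.11-fold higher, and Plvap, which builds the diaphragms of endothelial openings, 2.08- to 10.1-fold. The ranges were 1.72- to 6.95-fold for the BMP ligand gene Bmp6, 2.69- to 4.61-fold for the adhesion receptor gene Adgrg6 and 1.93- to 2.79-fold for Ptgs1, which encodes cyclooxygenase-1. The 2 genes that were lower throughout were Mgll, a lipase gene at 67.9 to 179 CPM in endocardial against 482 to 549 CPM in other endothelial nuclei, and the co-receptor gene Nrp2.

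Other genes of that list did not set these nuclei apart. Nfatc1, the calcium-regulated factor of valve endocardium, had 79.0 to 167 CPM in endocardial and 80.8 to 101 CPM in other endothelial nuclei. Tbx20 and Foxp2 likewise fell on both sides of even across libraries, as did Hapln1 and Dkk3, which encode a matrix link protein and a secreted Wnt modulator. Cytl1 was 1.17- to 4.12-fold higher, Tmem100 1.28- to 2.22-fold higher and Edn1 between 0.962 and 9.62 times the level of other endothelial nuclei. Ramp3, Tmem255a, Ccdc3 and Irx3 were too rare to compare, at no more than 18.0 CPM in any endocardial library.

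Of 19 general endothelial genes, Eng and Emcn were at least 1.5-fold higher than in other endothelium in all 4 libraries and 8 were at least 1.5-fold lower, and 6 of the 19 had served to choose the other endothelial nuclei. The adhesion gene Pecam1 lay between 0.85 and 1.43 times the other endothelial level, and the VEGF receptor gene Flt1 between 0.458 and 0.619 times. Both are among those 6 genes, so the choice fixes part of their level in other endothelial nuclei. All 14 capillary genes that could be compared were at least 1.5-fold lower in each library. Among them, the fatty acid transporter gene Cd36 had 144 to 318 CPM in endocardial and 884 to 1115 CPM in other endothelial nuclei. Of 12 arterial genes 8 were lower throughout, and the gap junction gene Gja5 had 1.39 to 6.81 CPM against 19.5 to 129 CPM. Among 8 venous genes Vwf and Plvap were higher throughout and none was lower throughout.

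**Figure D1:**
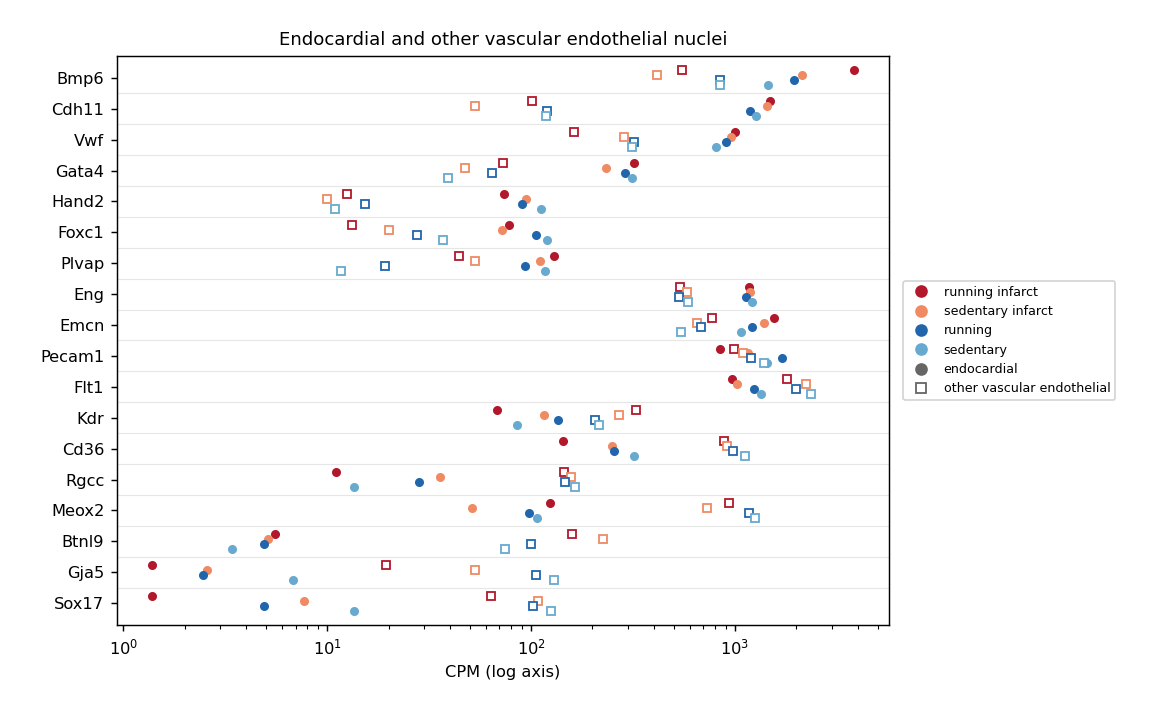
CPM (horizontal log axis) of 18 genes in endocardial nuclei (filled circles) and other vascular endothelial nuclei (open squares), 1 colour per library. Cdh11, Gata4, Hand2 and Vwf lie to the right in endocardial nuclei of each library, while Cd36, Meox2, Btnl9, Gja5 and Sox17 lie to the left.

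The 12 genes with the greatest smallest excess over other endothelium were Rasgef1b, Chrm3, Col23a1, Epha7, Tuft1, Wdr17, Rps6ka2, Nrxn3, Sntg2, Fgf14, Nalcn and Col4a3. Several of them are better known from neurons, including the neurexin gene Nrxn3, the sodium channel partner gene Fgf14 and the sodium leak channel gene Nalcn. Chrm3, the M3 muscarinic acetylcholine receptor gene, was steady over the libraries, with 2235, 1861, 2204 and 2274 CPM in endocardial nuclei of running infarct, sedentary infarct, running and sedentary hearts, against 116, 48.6, 120 and 83.5 CPM in other endothelial nuclei. Wdr17 had 3952, 4073, 5818 and 5834 CPM in endocardial nuclei, so it was lower in both infarct libraries. By contrast Rasgef1b, an exchange factor gene for Rap proteins, had 1449 and 1248 CPM in running infarct and sedentary infarct nuclei, against 699 and 725 CPM in running and sedentary nuclei. Epha7, Nrxn3 and Fgf14 were also higher in both infarct libraries than in the libraries without infarct. The 8 genes with the most constant deficit were Cobl, Btnl9, Ccdc85a, Ephb1, Myo10, Sox17, Ablim3 and Nav3. Sox17, a factor of arterial endothelium, had no more than 13.6 CPM in endocardial nuclei of any library, against at least 63.9 CPM in other endothelial nuclei.

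Nrg1 transcripts were far more abundant in endocardial nuclei of infarcted hearts. Because Nrg1 is one of the 5 selection markers, it was read in nuclei chosen by the other 4, namely 173, 97, 216 and 172 nuclei of running infarct, sedentary infarct, running and sedentary hearts. There it stood at 10870 CPM (10620 to 11130) in running infarct, 6305 (6053 to 6564) in sedentary infarct, 1806 (1711 to 1905) in running and 1609 (1505 to 1718) in sedentary nuclei. Both infarct libraries thus lay above both libraries without infarct, and running infarct was the highest. The ratio was 6.02-fold (5.68 to 6.38) for running infarct over running and 3.92-fold (3.63 to 4.24) for sedentary infarct over sedentary. Running infarct over sedentary infarct gave 1.72-fold (1.65 to 1.81) and running over sedentary 1.12-fold (1.03 to 1.22). The last of these turned with the Y-linked count, at a log2 ratio of -0.89 among nuclei with Y-linked UMIs and 1.36 among those with none, while the other comparisons kept their direction in both.

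The higher sum came both from more nuclei with Nrg1 and from more UMIs in those that had it. In the nuclei chosen by the other 4 markers, 76.88% of running infarct, 58.76% of sedentary infarct, 49.54% of running and 46.51% of sedentary nuclei held a UMI of Nrg1. With each of these nuclei thinned to 1000 UMIs the Nrg1 shares were 71.93% (64.56 to 78.52), 48.96% (38.61 to 59.37), 35.19% (28.83 to 41.95) and 33.53% (26.48 to 41.16), leaving out 2, 1, 0 and 2 shallower nuclei. Thinned cardiomyocyte nuclei, where Nrg1 served as a gauge of free RNA, had shares of 7.61%, 1.83%, 0.741% and 1.37% in the same order. Median depths before thinning were 3745, 3676, 3565.5 and 3102.5 UMIs in the nuclei chosen by the other 4 markers, against 6138.5, 11170, 9263 and 9355 UMIs in cardiomyocyte nuclei. Nuclei in which Nrg1 alone made up at least 1% of UMIs numbered 66 of 173 (38.15%) in running infarct, 19 of 97 (19.59%) in sedentary infarct, 9 of 216 (4.167%) in running and 7 of 172 (4.07%) in sedentary hearts. That limit cuts a continuous range, since 40, 17, 16 and 17 nuclei lay between 0.5% and 1.5%. All nuclei above it held endothelial UMIs. In sedentary infarct hearts the 10 nuclei richest in Nrg1 held 59.4% of its UMIs, and in running infarct hearts 27.3%.

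The other selection markers differed less between libraries. Each was read in nuclei chosen by the remaining markers. Npr3, the clearance receptor gene for natriuretic peptides, had 1406 CPM in running infarct, 1542 in sedentary infarct, 1666 in running and 1788 in sedentary nuclei. Smoc1, which encodes a secreted matricellular protein, had 849, 893, 558 and 523 CPM and was the only one of these other markers past 1.5-fold in both infarct comparisons, at 1.52- and 1.71-fold. Tmem108 lay between 3096 and 4174 CPM. Plagl1, an imprinted zinc finger gene, had 228 to 378 CPM. The share of nuclei with a UMI of Npr3 was 71.82% (64.67 to 78.25) in running infarct and 73.03% (62.58 to 81.9) in sedentary infarct, against 87.5% (81.97 to 91.82) in running and 84% (77.14 to 89.47) in sedentary hearts. These nuclei had to carry the remaining markers, so the rule fixes part of these levels. For each of these genes the remaining markers include Nrg1, which was itself higher in the infarct libraries. The lower Npr3 shares after infarction cannot be told apart from an effect of that choice.

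**Figure D2:**
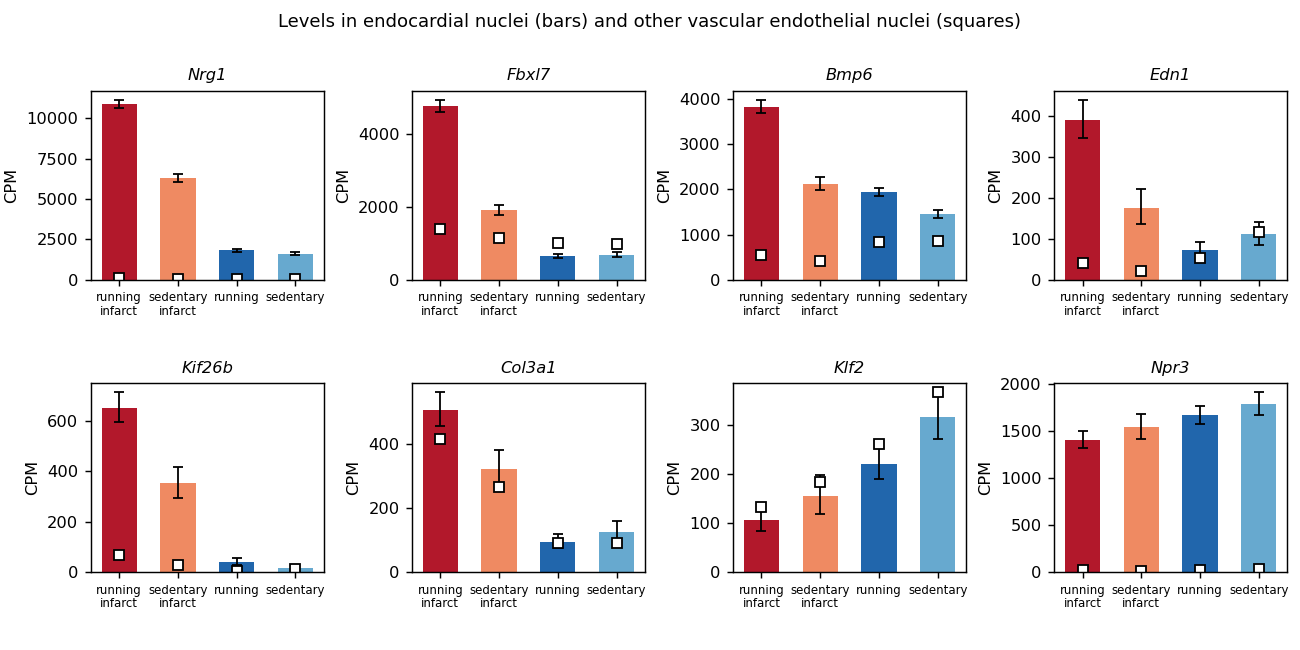
CPM (vertical axis, from 0, a different scale in each panel) of 8 genes in endocardial nuclei (bars with exact 95% Poisson intervals) and in other vascular endothelial nuclei (open squares) of the 4 libraries, with Nrg1 and Npr3 read in nuclei chosen by the other 4 markers. Nrg1, Fbxl7, Kif26b and Col3a1 are higher and Klf2 is lower in endocardial nuclei of both infarct libraries, and Npr3 stays between 1406 and 1788 CPM. The other vascular endothelial nuclei were chosen to hold at most 1 UMI of the 5 markers. Their Nrg1 and Npr3 squares are therefore low by choice and are no comparison for the bars.

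Genes other than the selection markers were compared in all members, with a gene counted as measured when it had at least 100 UMIs over both libraries. Running infarct over running had 601 of 3564 measured genes at least 1.5-fold apart (16.9%), of which 243 were higher (6.82%) and 358 lower (10%). Sedentary infarct over sedentary had 302 of 2403 (12.6%), with 130 higher (5.41%) and 172 lower (7.16%). Of 2393 genes measured in both arms, 48 were higher in both infarct comparisons and 48 lower in both, while 6 moved in opposite directions. The 48 higher genes were 33.8% of those higher in the running arm and 38.7% of those higher in the sedentary arm. The 48 lower ones were 21.7% and 28.4%. The libraries of one arm are not used in the other. Of the 25 endocardial genes that the rule did not use, 19 were measured in the running arm, where 3 were higher and 5 lower (median log2 -0.30, against -0.07 over all measured genes). In the sedentary arm 16 were measured, with 2 higher and 4 lower (median -0.17, against -0.05).

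The most marked genes of both infarct comparisons included Fbxl7, Kif26b, Ghr and Angpt1. Fbxl7, which encodes a substrate adaptor of an SCF ubiquitin ligase, had 4773 CPM in running infarct, 1917 in sedentary infarct, 654 in running and 686 in sedentary endocardial nuclei. It was 7.30-fold (6.66 to 8.01) higher in running infarct than in running and 2.80-fold (2.47 to 3.16) higher in sedentary infarct than in sedentary nuclei. In other vascular endothelial nuclei the same ratios for Fbxl7 were 1.37 and 1.19. Kif26b, a kinesin family gene linked to non-canonical Wnt signalling, had 650, 351, 38 and 15.3 CPM in running infarct, sedentary infarct, running and sedentary endocardial nuclei. Its ratios were 17.1-fold (11.9 to 25.5) in the running arm and 22.9-fold (11.7 to 51.2) in the sedentary arm. Without the nuclei of mixed content the first ratio came to 31.8-fold. In running infarct hearts 74 members held a UMI of Kif26b, against 8 in running hearts. In sedentary infarct hearts 25 members held one, against 5 in sedentary hearts. In the sedentary arm Kif26b was over 5 times higher in another class of nuclei, so it was left out of the named genes there. With each nucleus thinned to 1000 UMIs the share with Kif26b was 21.5% in running infarct and 14% in sedentary infarct, against 0.429% in running and 1.67% in sedentary endocardial nuclei. Cardiomyocyte nuclei thinned in the same way had shares of 7.07%, 5.50%, 4.20% and 3.13%, so the endocardial shares without infarct lay below those of cardiomyocytes. Thinned other vascular endothelial nuclei had 4.72%, 2.09%, 0% and 0.928%. Whether the cardiomyocyte shares come from free RNA or from these nuclei themselves was not tested.

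Ghr, the growth hormone receptor gene, had 3776, 2917, 890 and 1067 CPM in running infarct, sedentary infarct, running and sedentary nuclei. The 2 adipocyte-bearing nuclei held 318 of the 1138 Ghr UMIs of the sedentary infarct set. Without the nuclei of mixed content Ghr was 4.25-fold higher in running infarct than in running and 2.08-fold higher in sedentary infarct than in sedentary nuclei, against 4.24- and 2.73-fold with them. Angpt1, which encodes the angiopoietin that activates the Tek receptor, had 603, 308, 107 and 95.3 CPM in the 4 libraries in the same order. It was 5.66-fold (4.49 to 7.21) and 3.23-fold (2.33 to 4.52) higher in the running and sedentary arms. In other vascular endothelial nuclei the Angpt1 ratios lay below 1, at 0.471 and 0.325. Tuft1, the tuftelin gene, had 426, 292, 71.0 and 126 CPM and was 5.99- and 2.32-fold higher after infarction in the running and sedentary arms. Camk4, a calcium-dependent kinase gene, had 164 CPM in running infarct, 41.0 in sedentary infarct, 11 in running and 17.0 in sedentary nuclei.

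**Figure D3:**
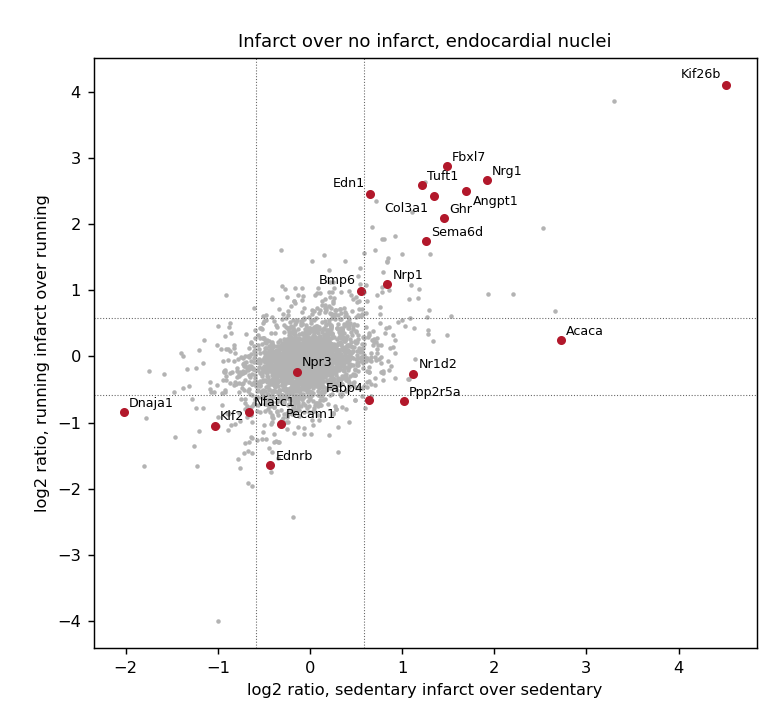
Log2 ratio of infarct over no infarct in endocardial nuclei of running mice (vertical axis) against sedentary mice (horizontal axis), 1 point per gene measured in both arms, with dotted lines at 1.5-fold and some genes named. Kif26b, Fbxl7, Nrg1 (here in all members, which it helped to choose), Angpt1, Tuft1, Col3a1 and Ghr lie at the upper right, and Dnaja1, Klf2 and Nfatc1 at the lower left.

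In the infarct libraries the nuclei richest in Nrg1 had more Fbxl7, Kif26b and Ghr than the rest. In running infarct hearts Fbxl7 had 8561 CPM in nuclei with Nrg1 at 1% of UMIs or more and 2242 CPM in the rest. In sedentary infarct hearts it had 5813 and 982 CPM. The rest were still above running and sedentary hearts, where Fbxl7 had 638 and 676 CPM in nuclei under the limit. Kif26b had 1166 against 261 CPM in running infarct and 1337 against 121 CPM in sedentary infarct hearts, while Ghr had 5769 against 2472 CPM and 4542 against 2618 CPM. Without infarct only 9 running and 7 sedentary nuclei were rich in Nrg1. There Fbxl7 had 581 CPM in rich nuclei and 638 in the rest of the running library, and 1201 and 676 CPM in the sedentary library. Kif26b had 0 UMIs in the rich nuclei of both libraries, against 43.3 CPM in the rest of the running and 17 CPM in the rest of the sedentary nuclei. Endothelial genes differed in direction. In running infarct hearts Flt1 had 601 CPM in the nuclei rich in Nrg1 and 1190 in the rest, and Klf2 had 32.8 and 133 CPM. In sedentary infarct hearts Klf2 had 13.2 and 171 CPM. Emcn, by contrast, had 1687 CPM in the rich nuclei and 1584 in the rest in running infarct hearts, and 2198 and 1213 CPM in sedentary infarct hearts. These nuclei were split on Nrg1 after their values were seen, and the split carries no test.

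Since Nrg1 helped to choose the members, the infarct comparison was repeated in nuclei chosen by the other 4 markers, a check chosen after seeing the data. Fbxl7 was then 7.63-fold higher in running infarct than in running and 2.81-fold higher in sedentary infarct than in sedentary nuclei. Kif26b was 15.3- and 22.5-fold higher, Ghr 4.30- and 2.78-fold, Angpt1 5.38- and 3.17-fold and Tuft1 6.56- and 2.32-fold. These ratios thus stayed near those with Nrg1 in the rule. Kif26b and Angpt1 came out lower in both arms, and Fbxl7 and Ghr higher.

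**Figure D4:**
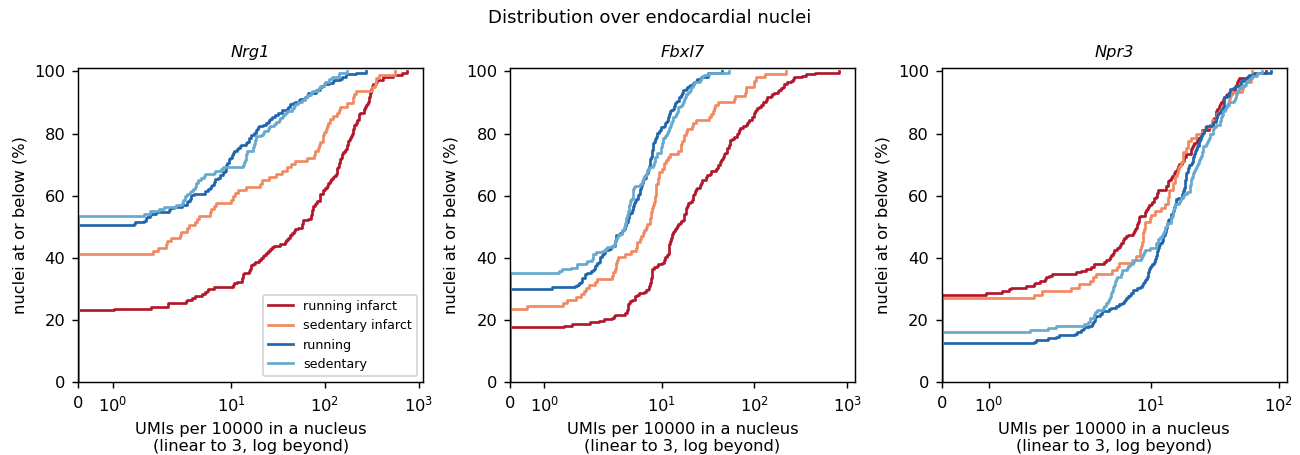
Cumulative share of nuclei (vertical axis, percent) at or below a given number of UMIs per 10000 (horizontal axis, linear to 3 and log beyond) for Nrg1, Fbxl7 and Npr3, with Nrg1 and Npr3 in nuclei chosen by the other 4 markers. The running infarct curve of Nrg1 and Fbxl7 lies farthest to the right and the sedentary infarct curve next, whereas the Npr3 curves of both infarct libraries start higher at 0. The nuclei of the Npr3 panel were chosen in part by Nrg1, so this start is not independent of Nrg1.

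Among ligands and receptors that act on the vessel wall and on muscle, the endothelin gene Edn1 stood out. Edn1, the source of the vasoconstrictor endothelin-1, had 390 CPM in running infarct, 174 in sedentary infarct, 71.0 in running and 111 in sedentary endocardial nuclei. The running infarct library was the highest by a wide margin and the running library the lowest. Running infarct over running gave 5.49-fold (4.12 to 7.41) and sedentary infarct over sedentary 1.58-fold (1.10 to 2.25). In other vascular endothelial nuclei Edn1 was lower after infarction, with 40.5, 20.0, 53.1 and 115 CPM and ratios of 0.762 and 0.174. In endocardial nuclei with no Y-linked UMI the sedentary arm log2 ratio of Edn1 was -0.17, so its direction there rested on the other nuclei. Its receptor gene Ednrb had 129 CPM in running infarct, 179 in sedentary infarct, 402 in running and 242 in sedentary endocardial nuclei. Ednrb was 0.321 times (0.252 to 0.405) the running level in running infarct and 0.743 times (0.550 to 0.996) the sedentary level in sedentary infarct nuclei, against 1.93 and 1.85 times in other endothelial nuclei.

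Of 29 genes of BMP and TGF-beta signalling, 19 were measured in the running arm, where 3 were higher and 1 lower after infarction (median log2 ratio 0.13, against -0.07 over all measured genes). In the sedentary arm 15 were measured, 1 was higher and 3 were lower (median -0.04, against -0.05 over all). Over all measured genes 6.82% were higher and 10% lower in the running arm, and 5.41% and 7.16% in the sedentary arm. The ligand gene Bmp6 had 3839 CPM in running infarct, 2130 in sedentary infarct, 1938 in running and 1453 in sedentary nuclei, and its ratio was 1.98 (1.86 to 2.11) in the running and 1.47 (1.33 to 1.62) in the sedentary arm. In other endothelial nuclei Bmp6 had ratios of 0.656 and 0.490. Without the nuclei of mixed content its sedentary arm ratio in endocardial nuclei was 1.58. Ltbp1, which encodes a protein that stores latent TGF-beta in matrix, had 571, 590, 315 and 281 CPM and was 1.81-fold and 2.10-fold higher after infarction in running and sedentary mice. Without Nrg1 in the rule the first of these Ltbp1 ratios came to 1.48. The receptor gene Tgfbr1 was 1.69-fold higher in the running arm, and 1.29-fold without the nuclei of mixed content.

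The targets and inhibitors of BMP signalling did not follow Bmp6. Id3, a transcription regulator induced by BMP, had 125 CPM in running infarct, 149 in sedentary infarct, 167 in running and 259 in sedentary nuclei, and its sedentary arm ratio was 0.575 (0.417 to 0.783). Smad6, an inhibitory Smad gene, had 449, 364, 411 and 643 CPM, so the sedentary library was the highest. Inhba, which encodes an activin subunit, had 22.2, 38.5, 79.6 and 153 CPM and was 0.251 times (0.135 to 0.436) the sedentary level in sedentary infarct nuclei. Id1 was 0.478 times (0.301 to 0.743) the running level in running infarct nuclei. Gata6, a factor of cardiac and endocardial lineages, had 514, 397, 263 and 231 CPM in running infarct, sedentary infarct, running and sedentary nuclei, and was 1.95-fold (1.65 to 2.32) and 1.72-fold (1.35 to 2.18) higher after infarction. In other endothelial nuclei the Gata6 ratios were 0.568 and 0.504.

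Of 20 listed genes of endothelial-mesenchymal transition, 9 were measured in the running arm, and 5 were higher after infarction and none lower (median log2 0.61, against -0.07 over all measured genes). In the sedentary arm 5 were measured, 1 was higher and 1 lower (median 0.26, against -0.05). Over all measured genes 6.82% were higher in the running arm, and 5.41% were higher and 7.16% lower in the sedentary arm. Col3a1, a fibrillar collagen gene, had 506 CPM in running infarct, 320 in sedentary infarct, 94.3 in running and 126 in sedentary nuclei, with ratios of 5.37 (4.19 to 6.95) and 2.55 (1.89 to 3.44). Postn, the periostin gene of activated fibroblasts, had 151, 87.2, 61.2 and 28.9 CPM. Cdh2, the N-cadherin gene, was 2.99-fold (2.05 to 4.44) higher in running infarct than in running nuclei and Zeb2, a repressor of epithelial genes, 1.53-fold (1.35 to 1.74), or 1.46-fold without the nuclei of mixed content. Vim, the vimentin gene, was lower after infarction in sedentary mice, at 0.580 times (0.469 to 0.713), or 0.674 times in nuclei chosen without Nrg1. Col3a1, Postn, Cdh2 and Zeb2 were each over 5 times higher in another class of nuclei in the running arm. In other endothelial nuclei 7 of 12 measured genes of the list were higher and 1 lower in the running arm (median log2 0.73). In their sedentary arm 4 of 9 were higher and none lower (median 0.29). Over all genes measured in other endothelial nuclei, 324 of 6168 and 245 of 4864 were higher in these arms.

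Col3a1 and Postn are also fibroblast genes, and they moved in the same way in other endothelial nuclei. The Col3a1 ratios there were 4.61 and 2.93 and the Postn ratios 5.53 and 7.84 in the running and sedentary arms. The 10 fibroblast genes on the marker list summed to 1410 CPM in running infarct, 1223 in sedentary infarct, 1036 in running and 1006 in sedentary endocardial nuclei. All 10 had at least 1 UMI in each library except 1 in sedentary infarct. In nuclei classed as fibroblasts the same sum was between 5876 and 6852 CPM, and 3 of the 10 are limited by the rule. The part of fibroblast RNA in the collagen values was not tested.

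Basement membrane genes gave 4 higher and none lower of 12 measured in the running arm (median log2 0.03, against -0.07 over all genes) and 1 higher of 9 in the sedentary arm (median 0.09, against -0.05). Over all measured genes 6.82% were higher in the running and 5.41% in the sedentary arm. Col4a3, a collagen IV chain gene that is far more abundant in endocardial than in other endothelial nuclei, had 546 CPM in running infarct, 467 in sedentary infarct, 333 in running and 316 in sedentary nuclei. It was 1.64-fold (1.40 to 1.92) and 1.47-fold (1.20 to 1.82) higher after infarction, and 1.61-fold in the sedentary arm without the nuclei of mixed content. Its partner chain gene Col4a4 had 582, 508, 561 and 536 CPM, a narrower range. Sparc, which encodes a collagen-binding matricellular protein, was 2.03-fold (1.55 to 2.69) and 2.27-fold (1.67 to 3.11) higher in endocardial nuclei after infarction, and 1.83- and 2.31-fold in other endothelial nuclei.

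Guidance and angiogenesis genes held a few of the higher members. Nrp1, a co-receptor gene for VEGF and semaphorins, had 2226 CPM in running infarct, 1420 in sedentary infarct, 1047 in running and 796 in sedentary nuclei. Its ratios were 2.13 (1.96 to 2.31) and 1.78 (1.57 to 2.02). Sema6d, a membrane semaphorin gene with a role in cardiac chamber formation in the chick, had 797, 595, 239 and 249 CPM and was 3.34-fold (2.83 to 3.95) and 2.39-fold (1.94 to 2.97) higher after infarction. Efnb2, the ephrin-B2 gene of arterial endothelium, had 327, 174, 168 and 165 CPM, so running infarct alone stood apart. Over the guidance list, 3 of 14 measured genes were higher and 1 lower in the running arm (median log2 -0.01, against -0.07 over all genes), and 2 of 13 were higher and none lower in the sedentary arm (median 0.08, against -0.05). Over all genes 6.82% and 5.41% were higher in these arms. Of angiogenesis and tip cell genes, 2 of 9 were higher and 2 lower in the running arm, where 10% of all measured genes were lower. The VEGF receptor gene Kdr was one of those lower, at 0.500 times (0.349 to 0.706), with 67.9 CPM in running infarct, 115 in sedentary infarct, 136 in running and 85.1 in sedentary nuclei.

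The flow-responsive genes Klf2 and Klf4 and the valve gene Nfatc1 were lower after infarction in both arms. Klf2, the shear stress factor of endothelium, had 107 CPM in running infarct, 154 in sedentary infarct, 220 in running and 315 in sedentary nuclei. It was 0.484 times (0.366 to 0.636) the running level in running infarct and 0.489 times (0.359 to 0.657) the sedentary level in sedentary infarct nuclei. Other endothelial nuclei had Klf2 ratios of 0.511 and 0.501, near those of the endocardium. Klf4 had 72.1, 97.4, 148 and 177 CPM, with ratios of 0.486 and 0.550. Nfatc1 had 79.0, 105, 141 and 167 CPM, with ratios of 0.561 (0.401 to 0.777) and 0.630 (0.427 to 0.916), against 1.05 and 0.918 in other endothelial nuclei. In nuclei chosen without Nrg1 the sedentary arm ratio of Nfatc1 was 0.672, just short of 1.5-fold. Klf2, Klf4 and Nfatc1 were the only valve and cushion genes measured in both arms, 3 of 19, and all 3 were lower in each. Of 15 flow response and vasomotor genes measured in the running arm, 1 was higher and 7 lower (median log2 -0.35), where 10% of all measured genes were lower and their median was -0.07. Of 14 in the sedentary arm 1 was higher and 2 lower (median -0.22), near the 7.16% lower over all genes, whose median was -0.05.

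Pecam1, an adhesion gene of all endothelium, was lower in running infarct nuclei. It had 844 CPM in running infarct, 1154 in sedentary infarct, 1705 in running and 1438 in sedentary nuclei, with ratios of 0.495 (0.450 to 0.545) and 0.802 (0.714 to 0.900). In other endothelial nuclei the Pecam1 ratios were 0.830 and 0.784, but Pecam1 helped to choose those nuclei. The choice thus fixes part of these ratios, and they are no free comparison for the endocardial ones. Of 18 general endothelial genes measured in the running arm 3 were lower and none higher, namely Pecam1, the transcription factor gene Erg and Kdr, beside 10% lower over all measured genes. In the sedentary arm 2 of 15 were lower, beside 7.16% over all genes, the cadherin gene Cdh5 at 0.646 times (0.476 to 0.867) and the factor gene Fli1 at 0.663 times (0.552 to 0.793). With the nuclei of mixed content left out, Fli1 came to 0.732 times. Emcn and Eng stayed within 1.5-fold in both arms. Cav1, the caveolin gene, was 0.557 times (0.457 to 0.677) the running level in running infarct, and Epas1, a hypoxia-inducible factor gene, 0.469 times (0.375 to 0.583). Hif1a was higher after infarction, with 129 CPM in running infarct, 177 in sedentary infarct, 84.5 in running and 61.3 in sedentary nuclei. Its running arm ratio of 1.53 came to 1.47 without the nuclei of mixed content.

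Among 5 measured genes of lipid uptake, 4 were lower in running infarct than in running nuclei. These were Fabp4, Cd36, Fabp5 and Lpl, at 0.523 to 0.644 times, and the list median was -0.65 on the log2 scale, beside 10% lower and a median of -0.07 over all genes. Lpl came to 0.676 times without the nuclei of mixed content. In the sedentary arm 2 of 5 were higher, Fabp4 and Acsl1, and the median was -0.29, beside 5.41% higher and -0.05 over all genes. Acsl1 had 449 CPM in sedentary infarct and 28.9 in sedentary nuclei, and 166 of its 175 UMIs in sedentary infarct lay in the 2 adipocyte-bearing nuclei. Without the nuclei of mixed content Acsl1 was 0.690 times and Fabp4 0.993 times the sedentary level, against 15.5 and 1.56 times with them. Car3 and Acaca, the genes ranked highest in the sedentary infarct comparison, rested on the same 2 nuclei, which held 248 of 249 Car3 and 199 of 232 Acaca UMIs. Without them and the other mixed nuclei Car3 had 0 UMIs and Acaca 0.920 times the sedentary level.

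The genes named as lowest in running infarct against running nuclei were Nr4a1, Ahsg, Hecw1 and Gbp4. Nr4a1, an immediate early nuclear receptor gene, had 8.32 CPM in running infarct, 17.9 in sedentary infarct, 181 in running and 39.1 in sedentary nuclei, so the running library stood alone. In running hearts cardiomyocyte nuclei had more of it, at 312 CPM. Egr1, another immediate early gene, had 5.55, 5.13, 122 and 34.0 CPM. Egr1 was over 5 times higher in another class of nuclei, so it was left out of the named genes. All 4 immediate early genes measured in this comparison were lower (median log2 -2.84), beside 10% lower and a median of -0.07 over all measured genes. In other endothelial nuclei 8 of 10 measured genes of this list were lower too (median -1.03), beside 505 of 6168 over all genes. Ahsg, which encodes fetuin-A, a plasma protein made mainly by the liver, had 18.0, 64.1, 288 and 128 CPM in endocardial nuclei and at most 7.53 CPM in other endothelial nuclei. It was seen in 74 of the running and 10 of the running infarct members. Hecw1, a ubiquitin ligase gene, rested on few nuclei, with 91.3% of its running UMIs in 10 nuclei.

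Named as lowest in sedentary infarct against sedentary nuclei were Hsph1, Dnaja1, Nckap5 and Plpp1. Plpp1, a lipid phosphatase gene, had 376 CPM in running infarct, 290 in sedentary infarct, 645 in running and 681 in sedentary nuclei, and was lower in both arms, at 0.582 times (0.501 to 0.675) and 0.426 times (0.342 to 0.526). Nckap5 had 356, 233, 516 and 648 CPM, with 58.3% of its sedentary UMIs in 10 nuclei. Hsph1 and Dnaja1 encode a chaperone of the HSP110 family and a J-domain co-chaperone. Hsph1 had 55.5, 30.8, 64.9 and 167 CPM in running infarct, sedentary infarct, running and sedentary nuclei, and Dnaja1 had 86, 66.7, 154 and 271 CPM. The sedentary library was the highest for both genes.

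Heat shock genes as a list were low against the sedentary library in each comparison. Of 18 listed, 7 were measured in sedentary infarct over sedentary, and 5 were lower and none higher (median log2 -1.08, against -0.05 over all measured genes). In running over sedentary 10 were measured, with 7 lower and none higher (median -0.77, against -0.01). Over all measured genes 7.16% were lower in the first of these comparisons and 3.03% in the second. Both comparisons share the sedentary library. Hsp90ab1 had 153, 144, 220 and 303 CPM in running infarct, sedentary infarct, running and sedentary nuclei, and Hspa8 had 121, 113, 158 and 240 CPM. The same pattern stood in other endothelial nuclei, where Hsph1 had 23.4, 34.3, 42.4 and 216 CPM. P4ha1, a collagen prolyl hydroxylase gene that responds to hypoxia, was highest in the sedentary library as well, at 262, 233, 206 and 424 CPM, and had 505 CPM in its other endothelial nuclei. The ratio depended on the Y-linked count. Hsph1 in running over sedentary had a log2 ratio of -2.70 among nuclei with Y-linked UMIs and -0.01 among those with none, a difference that was not tested.

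The promoters of 2 of these chaperone genes are shown beside those of Fbxl7 and Edn1, whose infarct ratios in endocardial nuclei lay far above those in other endothelium, since heat shock factor binds paired units of the letters GAA. Each stretch covers the 250 bases before the start of the first listed RefSeq transcript on build GRCm38.p6, 5′ to 3′ on the gene's strand, and capitals mark a match to GAANNTTC or TTCNNGAA. The regions are chr5:149636337-149636586 on the minus strand for Hsph1, chr4:40722218-40722467 on the plus strand for Dnaja1, chr15:26895565-26895814 on the minus strand for Fbxl7 and chr13:42301226-42301475 on the plus strand for Edn1.
Hsph1: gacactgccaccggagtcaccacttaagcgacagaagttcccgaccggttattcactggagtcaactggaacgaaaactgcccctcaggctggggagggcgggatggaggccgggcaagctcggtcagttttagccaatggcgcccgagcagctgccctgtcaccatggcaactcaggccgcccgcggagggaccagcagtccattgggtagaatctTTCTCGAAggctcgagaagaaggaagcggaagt
Dnaja1: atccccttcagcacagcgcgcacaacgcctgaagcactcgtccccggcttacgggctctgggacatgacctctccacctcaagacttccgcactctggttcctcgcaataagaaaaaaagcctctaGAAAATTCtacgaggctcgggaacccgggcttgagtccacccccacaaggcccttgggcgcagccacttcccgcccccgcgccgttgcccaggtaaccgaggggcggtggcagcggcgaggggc
Fbxl7: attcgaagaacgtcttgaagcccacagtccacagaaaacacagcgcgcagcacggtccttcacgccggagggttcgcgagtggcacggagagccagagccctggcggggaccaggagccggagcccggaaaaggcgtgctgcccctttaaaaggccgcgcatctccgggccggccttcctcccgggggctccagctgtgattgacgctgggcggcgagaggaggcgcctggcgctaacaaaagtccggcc
Edn1: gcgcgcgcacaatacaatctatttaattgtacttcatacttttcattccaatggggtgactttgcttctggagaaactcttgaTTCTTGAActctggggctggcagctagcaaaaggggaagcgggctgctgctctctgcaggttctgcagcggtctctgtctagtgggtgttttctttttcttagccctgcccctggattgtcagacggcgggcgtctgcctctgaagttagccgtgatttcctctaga

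The match lies 33 bases before the start in Hsph1, 124 in Dnaja1 and 167 in Edn1, and the Fbxl7 stretch holds none. Both motifs read the same on either strand. GAANNTTC occurs in 6.69% and TTCNNGAA in 7.17% of 32851 promoters of the same length, and 12.8% hold at least 1 of them. Edn1 was lowest in the running library and highest in running infarct, unlike Hsph1 and Dnaja1, which were highest in the sedentary library. A match to these letters is a description of the sequence, and nothing follows from it about the binding of the factor.

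Running and sedentary nuclei without infarct had the lowest share of genes past 1.5-fold. Of 3334 measured genes 212 were at least 1.5-fold apart between running and sedentary endocardial nuclei (6.36%), with 111 higher (3.33%) and 101 lower (3.03%). The named higher genes were Iigp1, Nr4a1, Gbp4 and Hba-a1. Iigp1, an interferon-induced GTPase gene, had 389 CPM in running and 86.8 in sedentary nuclei, a ratio of 4.49 (3.33 to 6.15). Gbp4, a guanylate-binding protein gene of the same response, had 240 and 63.0 CPM, a ratio of 3.81 (2.67 to 5.57). In other endothelial nuclei the ratios were 2.19 for Iigp1 and 2.21 for Gbp4. Of 6 measured interferon-induced genes on the list 3 were higher and none lower, Gbp4, Stat2 and Gbp7 (median log2 0.60, against -0.01 over all). The log2 ratio of Iigp1 was 3.53 in nuclei with Y-linked UMIs and 0.40 in those with none.

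Between the infarct groups the running library was the lower one for both genes. Gbp4 had 34.7 CPM in running infarct against 89.7 CPM in sedentary infarct nuclei, and Iigp1 had 67.9 against 118 CPM. Hba-a1, an alpha globin gene of red cells, had 132 CPM in running and 35.7 in sedentary endocardial nuclei, and 332 and 60.2 CPM in other endothelial nuclei of the same libraries. The named lower genes were Edil3, Hsph1, Tspan18 and P4ha1. Edil3, a matrix protein gene, had 60.0 CPM in running and 214 in sedentary nuclei, with 95.2% of the sedentary UMIs in 10 nuclei. Tspan18, a tetraspanin gene, had 94.3 CPM in running and 220 in sedentary nuclei, a ratio of 0.430 (0.320 to 0.574).

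Between the infarct groups, 285 of 2631 measured genes were at least 1.5-fold apart (10.8%), with 144 higher (5.47%) and 141 lower (5.36%) in running infarct than in sedentary infarct nuclei. The named higher genes were Camk4, Fbxl7, Ncam1 and Ripor2, of which Camk4 and Fbxl7 were also named in the running arm of the infarct comparison. Fbxl7 was 2.49-fold (2.30 to 2.70) and Camk4 3.99-fold (2.36 to 7.21) higher in running infarct than in sedentary infarct nuclei. Ncam1, a neural cell adhesion gene, had 538 CPM in running infarct and 228 in sedentary infarct nuclei, a ratio of 2.36 (1.87 to 3.0), against 1.31 in other endothelial nuclei. Ripor2 had 204 CPM in running infarct and 74.3 in sedentary infarct nuclei, but 197 and 196 CPM in running and sedentary nuclei, so the sedentary infarct library was the one that stood apart.

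Some genes described above for infarction were also set between the infarct groups, chosen after their values were seen. Edn1 was 2.24-fold (1.71 to 2.96), Angpt1 1.96-fold (1.6 to 2.42) and Bmp6 1.80-fold (1.67 to 1.95) higher in running infarct than in sedentary infarct nuclei. Edn1 stood 2.02-fold higher in other endothelial nuclei too, where Bmp6 was 1.33-fold higher. Angpt1 had a log2 ratio of -0.59 in the few endocardial nuclei with Y-linked UMIs. Efnb2 was 1.88-fold (1.43 to 2.50) and Nrp1 1.57-fold (1.42 to 1.73) higher in endocardial nuclei, with 1.5-fold for Nrp1 without the nuclei of mixed content. Of 16 measured BMP and TGF-beta genes 3 were higher and none lower, Bmp6, Smad2 and Smad3 (median log2 0.05, against -0.03 over all). Of 9 measured genes of endothelial-mesenchymal transition 3 were higher and none lower, Col3a1, Postn and Cdh2 (median 0.24). Over all measured genes 5.47% were higher between the infarct groups. Col3a1, Postn and Cdh2 were each over 5 times higher in another class of nuclei. In other endothelial nuclei 3 of 10 measured genes of that list were higher and none lower (median 0.05). Postn was 1.73-fold higher with the nuclei of mixed content and 1.39-fold without them.

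The named lower genes of that comparison were Acaca, Fabp4, Ppp2r5a and Adam15. Without the nuclei of mixed content Acaca came to 1.00 times the sedentary infarct level, Fabp4 to 0.541 times and Ppp2r5a, a phosphatase subunit gene, to 0.775 times, against 0.154, 0.337 and 0.353 times with them. Adam15, a membrane metalloprotease gene of endothelium, had 56.8 CPM in running infarct and 185 in sedentary infarct nuclei, and its ratio was 0.308 (0.205 to 0.458) with the mixed nuclei and 0.287 without them. Fabp4, Acsl1, Cd36 and Lpl lay among the 5 lower of 7 measured lipid genes (median log2 -0.91). Over all measured genes 5.36% were lower and the median was -0.03. With the nuclei of mixed content left out, Cd36 came to 0.832 times, Lpl to 1.23 times and Acsl1 to 1.34 times the sedentary infarct level.

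Most measured glucocorticoid-responsive and clock genes were lower in running infarct than in sedentary infarct nuclei, where 5.36% of all measured genes were. Of 5 measured glucocorticoid-responsive genes 4 were lower (median log2 -1.04, against -0.03 over all measured genes). Fkbp5, a co-chaperone gene of the glucocorticoid receptor, had 77.6 CPM in running infarct, 215 in sedentary infarct, 105 in running and 155 in sedentary nuclei. Tsc22d3, which encodes the glucocorticoid-induced leucine zipper, had 55.5, 161, 116 and 131 CPM. Of 7 measured clock genes 5 were lower (median -0.67). Nr1d2, which encodes the repressor REV-ERB-beta, had 196, 318, 234 and 146 CPM in the 4 libraries, so sedentary infarct was the highest and sedentary the lowest, and Tef followed the same order with 169, 269, 187 and 146 CPM. In other endothelial nuclei Nr1d2 had 199, 326, 271 and 179 CPM, close to the endocardial values. The time of day at which hearts were taken is not given in the sources used here.

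**Figure D5:**
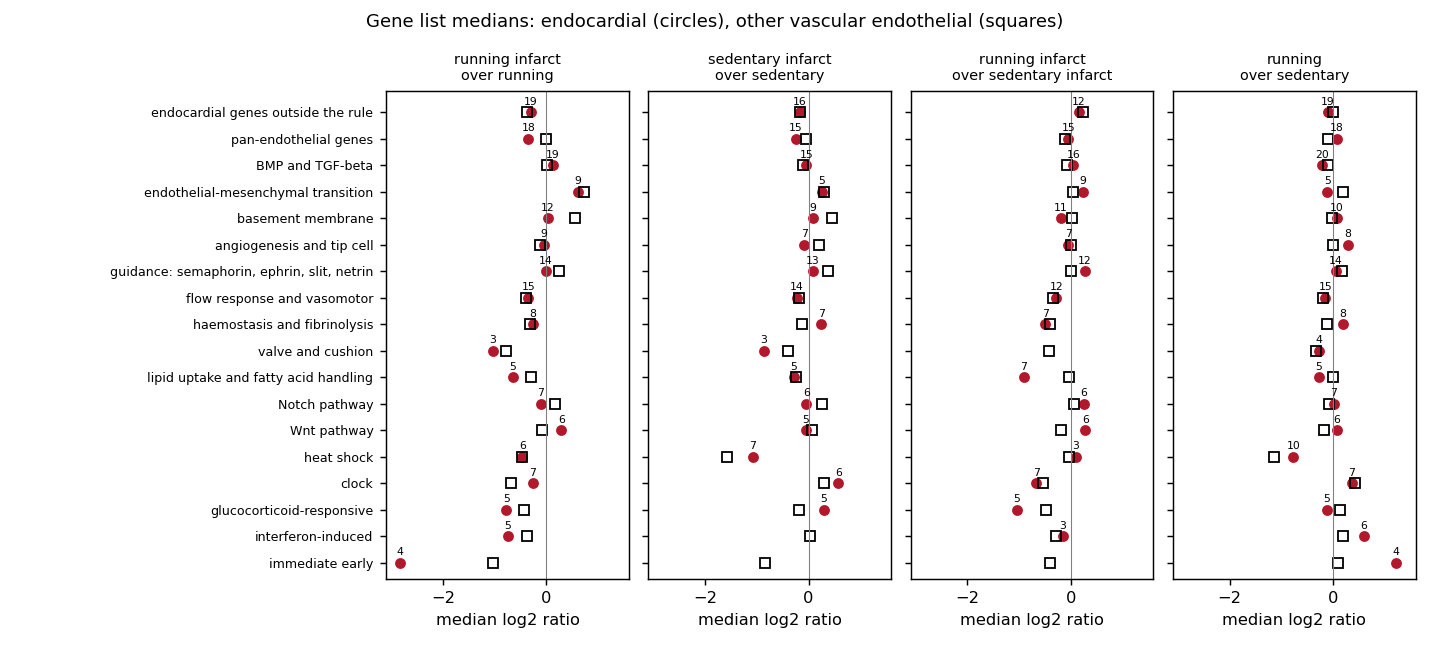
Median log2 ratio (horizontal axis) of each gene list (rows) in the 4 comparisons, in endocardial nuclei (red circles, with the number of measured genes) and in other vascular endothelial nuclei (open squares). Heat shock genes lie left of 0 in both comparisons with the sedentary library, endothelial-mesenchymal transition genes lie right of 0 in running infarct over running, and immediate early genes lie at -2.84 there.

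The remaining lists held few measured members or few past 1.5-fold. Of 20 Notch pathway genes 7 were measured in the running arm, with Maml3 higher and Hes1 lower, and 6 in the sedentary arm, with none past 1.5-fold. The list medians were -0.11 and -0.04 on the log2 scale, against -0.07 and -0.05 over all measured genes. In the running arm 6.82% of all measured genes were higher and 10% lower, and in the sedentary arm 5.41% and 7.16%. Wnt pathway genes had 1 of 6 measured higher in the running arm, the factor gene Tcf7l1 at 1.6-fold (1.38 to 1.85), and none of 5 in the sedentary arm. Among haemostasis genes Vwf stayed at 995, 959, 909 and 805 CPM in running infarct, sedentary infarct, running and sedentary nuclei, while Ptgs1 was 0.532 times (0.416 to 0.677) and the thrombin receptor gene F2r 0.443 times (0.304 to 0.635) the running level in running infarct. On the neuregulin and ErbB list, 2 of 11 genes were measured in the running arm, Nrg1 and the sheddase gene Adam17. The Adam17 ratio was 1.29 (0.891 to 1.87), an interval that spans even. The cytokine receptor gene Il1r1 was 1.5-fold (1.16 to 1.94) and 2.13-fold (1.49 to 3.05) higher after infarction in running and sedentary mice. The cyclin genes Ccnd2 and Ccnd3, the cell cycle genes that were measured, lay within 1.5-fold in every comparison.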

How the data were processed

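Nuclei of mouse ventricles were sequenced with 10x 3′ v3.1 chemistry in 4 libraries, 1 per group. The deposited files hold raw UMI counts of 25906 genes per barcode. Cell Ranger 7.1 and the GRCm39 build are listed in the submitters' processing notes, and other steps before deposit are not given in the sources used here. Members and gene lists were chosen with earlier results of these data known.

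A barcode needed 300 or more genes and no more than 20% mitochondrially encoded UMIs, and the marker rule was applied to raw counts. Doublets were not removed in the main results. Leaving out the highest Scrublet scores, 0.8% per 1000 barcodes, was an alternative and took out 8 members of the running infarct library, 0 of sedentary infarct, 2 of running and 2 of sedentary. UMIs were summed over members and divided by the total without mitochondrially encoded genes (CPM). Poisson, conditional binomial and Clopper-Pearson intervals are exact, at 95%, and cover counting error only. With 1 library per group no test was made. A gene was measured with at least 100 UMIs over both libraries. Gene symbols are those of the files, and 25461 matched an annotation from which chromosomes were taken.

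Named genes were the 4 higher and 4 lower per comparison whose interval bound nearest to even lay farthest from it. The selection markers, genes of the exclusion limits, Y-linked and mitochondrially encoded genes, numbered gene models, genes that moved the other way in nuclei with or without Y-linked UMIs and genes over 5 times higher in another class of at least 50 nuclei were left out. Beside other vascular endothelium, 12 higher and 8 lower genes with at least 20 UMIs per library were named. These other nuclei passed the same limits, held at least 3 UMIs over 2 or more of Flt1, Cdh5, Pecam1, Ptprb, Egfl7 and Cyyr1 and at most 1 UMI of the 5 markers. List examples were up to 4 members past 1.5-fold with the most UMIs, and further members were named after their values were seen. Alternatives changed the barcode filter, the marker rule, the Y-linked UMI count of nuclei (at least 2, or 0), the scaling, the UMI minimum and the fold threshold. Some genes of the lists are not reported here. The ratio and interval code was tested on simulated data. Python 3.11.15, numpy 2.4.6, scipy 1.17.1, pandas 2.3.3, scanpy 1.11.5 and matplotlib 3.10.9 were used.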

Additional observations from a re-analysis of the deposited data

Results flagged for a closer look

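For 5 genes the ratio past 1.5-fold lay on opposite sides of even in the 2 settings of one contrast, with 1 library in each group, and the difference between the ratios was not tested. Edn1 had a log2 ratio of 1.16 for running infarct over sedentary infarct and -0.64 for running over sedentary, where nuclei with at least 2 Y-linked UMIs gave 0.36. Tspan18 had 0.71 and -1.22 in the same comparisons, whereas Nr1d2 had -0.70 and 0.68. Fabp4 had a log2 ratio of -0.65 for running infarct over running and 0.64 for sedentary infarct over sedentary, and Ppp2r5a had -0.68 and 1.02. With the nuclei of mixed content left out, Fabp4 came to 0.993 times and Ppp2r5a to 0.875 times in sedentary infarct over sedentary nuclei, so these opposite directions rested on nuclei of mixed content.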

How the results depend on the processing

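Of 1911 gene ratios recomputed under the alternatives, 1610 stayed within the counting interval of the reported ratio, 271 left it and 30 turned. Of 1116 list medians 1 turned. A ratio or median counted as turned only where the reported value was at least 1.5-fold from even and the direction changed. Changes of direction from a smaller reported value are not counted as turned. The cause of these changes was not tested. No paired analysis was possible because each group is 1 library, and for the same reason no replicate was left out. The spread between hearts of a pool was not measured.

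The share of endocardial nuclei in running infarct, sedentary infarct, running and sedentary hearts was 3.059%, 2.246%, 2.951% and 2.546% with at least 6 marker UMIs over 3 genes, 0.5915%, 0.7486%, 0.5707% and 0.6552% with 0 UMIs of each exclusion limit, 10.21%, 6.963%, 7.002% and 5.549% after thinning, and 24.22%, 25.63%, 22.98% and 22.25% of all endothelial nuclei. It was 3.528% in running infarct without Nrg1 in the rule, 4.883% in running with 800 genes and 5% mitochondrial UMIs, and 2.516% in sedentary infarct and 2.71% in sedentary hearts among nuclei with Y-linked UMIs.

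The number of genes past the fold limit for running infarct over running, sedentary infarct over sedentary, running infarct over sedentary infarct and running over sedentary was 171, 74, 62 and 25 at 2-fold, 1244, 810, 806 and 683 with at least 50 UMIs, 278, 94, 110 and 58 with at least 200 UMIs, and 67, 41, 29 and 39 with 0 UMIs of each exclusion limit. With 800 genes and 5% mitochondrial UMIs it was 357, 167 and 74 for the comparisons other than running infarct over sedentary infarct. With Y-linked UMIs it was 328, 111 and 112 for all but running over sedentary, and with none 313, 174 and 95 for all but running infarct over sedentary infarct.

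The log2 ratio of Nrg1 in nuclei chosen by the other 4 markers stayed above 0 for both infarct comparisons and for running infarct over sedentary infarct under every alternative run. In that order (running arm, sedentary arm, between infarct groups) it was 3.04, 2.50 and 0.61 with 800 genes and 5% mitochondrial UMIs, 2.02, 1.76 and 0.93 with 0 exclusion UMIs, 3.35, 1.12 and 1.33 with Y-linked UMIs, and 1.84, 2.49 and 0.71 with none. In the sedentary arm and between infarct groups it was 2.19 and 0.41 with 6 marker UMIs, 1.83 and 0.87 with every nucleus weighed the same, and 2.12 and 0.72 without mixed nuclei. Size factors gave 2.68 in the running arm and 0.88 between infarct groups. Running over sedentary gave 0.67 with 0 exclusion UMIs, -0.89 with Y-linked UMIs and 1.36 with none.

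Turned gene ratios, in log2, were as follows. Without mixed nuclei the sedentary arm gave Acaca -0.12, Acsl1 -0.54 and Fabp4 -0.01, and running infarct over sedentary infarct gave Acaca 0.01, Acsl1 0.42 and Lpl 0.30. With 0 exclusion UMIs, where 24 to 35 nuclei per library were left, the sedentary arm gave Acaca -0.46, Angpt1 -0.46 and Fabp4 -0.18, the running arm F2r 0.00, Hes1 0.10, Hif1a -0.39 and Lpl 0.10, and running infarct over sedentary infarct Acaca 0.51, Lpl 1.44 and Ripor2 -0.56. With Y-linked UMIs the sedentary arm gave Fabp4 -0.15, Inhba 0.04 and Smad6 0.03, running infarct over sedentary infarct Angpt1 -0.59 and Lpl 0.04, and running over sedentary Edn1 0.36. With no Y-linked UMI Edn1 gave -0.17 in the sedentary arm and Cdh2 -0.06 between infarct groups. With 800 genes and 5% mitochondrial UMIs, where 25 to 99 nuclei per library were left, Cd36 gave 0.75 and Postn -0.53 in the running arm, Inhba 1.09 in the sedentary arm and Smad3 -0.03 between infarct groups. With 6 marker UMIs Fabp4 gave -0.32 in the sedentary arm, and with every nucleus weighed the same Lpl gave 0.22 between infarct groups. The lipid list median gave 0.11 in the running arm with at least 50 UMIs.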

Other observations

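The genes below were named after their values were seen, and none of their differences was tested. Nppa, the atrial natriuretic peptide gene, had 80.4 CPM in running infarct, 172 in sedentary infarct, 14.7 in running and 6.81 in sedentary endocardial nuclei. Other vascular endothelial nuclei had 124, 203, 13 and 11.6 CPM, so Nppa was higher in the infarct libraries in both classes. The part of free RNA from cardiomyocytes in these Nppa values was not tested. Mecom, a transcription factor gene of arterial endothelium, had 4072, 2748, 2571 and 2565 CPM in endocardial nuclei of the libraries in that order, against 2282, 2648, 2962 and 3033 CPM in other endothelial nuclei. The running infarct library was thus the highest for endocardial and the lowest for other endothelial nuclei. Gja4, a connexin gene of arterial endothelium, had 55.5, 38.4, 8.57 and 8.51 CPM in endocardial nuclei, from 40, 15, 7 and 5 UMIs, against 11.7, 22.9, 17.5 and 15.8 CPM in other endothelial nuclei.

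Prox1 and Lyve1 are lymphatic endothelial genes that the rule does not limit. Prox1 had 30.5 CPM in running infarct, 84.6 in sedentary infarct, 89.4 in running and 111 in sedentary endocardial nuclei, against 22.6 to 28.3 CPM in other endothelial nuclei. Lyve1 had 13.9, 53.8, 57.5 and 56.2 CPM in endocardial nuclei, against 10.9 to 22.6 CPM in other endothelial nuclei. Both were lowest in the running infarct library among endocardial nuclei, from 22 UMIs of Prox1 and 10 of Lyve1 there. Vcam1, a leukocyte adhesion gene, had 452, 477, 655 and 429 CPM in endocardial nuclei, against 83.4, 110, 262 and 363 CPM in other endothelial nuclei, and the classes lay farthest apart in the infarct libraries.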
